A study of Homo sapiens with 4 samples.

Results

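The response of KGN cells to a cyclic AMP analogue while YAP and TAZ were present is described here across genes, as the difference between 2 of the 4 arrays of the study. KGN is a human granulosa cell line that was derived from a granulosa cell tumour, so every array comes from 1 line. The cells were transfected with control siRNA (siNC, 10 nM) or with a pair of siRNAs that target YAP and TAZ (siYT, each at 5 nM), and 48 h later received fresh medium with 0.5 mM 8Br-cAMP or none for a further 24 h. The arrays compared are siNC+8Br-cAMP, with control siRNA and the analogue, and siNC, with control siRNA and medium without it, and all 4 cultures had been transfected. The siYT and siYT+8Br-cAMP arrays share no array with this pair and serve for values set side by side. RNA was measured on Clariom S Human arrays, and all 17709 probe sets that name exactly 1 gene, of 24351 on the array, were taken as members, which gives 17687 genes. Values are the deposited log2 signals, and a difference is siNC+8Br-cAMP minus siNC on that scale, where 1 is 2-fold. Each group has 1 array, so no difference was checked against replicates and no p-value is given.

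Granulosa cells surround the oocyte, convert androgens into estrogens and, after ovulation, make progesterone. Follicle-stimulating and luteinising hormone act on them through cyclic AMP, which frees the catalytic subunits of protein kinase A to phosphorylate the transcription factor CREB and other proteins. CREB binds the cyclic AMP response element, or CRE, and its classical targets include orphan nuclear receptors and phosphodiesterases, the enzymes that break cyclic AMP down. The analogue 8Br-cAMP enters cells and resists phosphodiesterases, so it acts without a hormone receptor.

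The arrays of the pair correlated across genes with r = 0.977, a description of these 2 arrays, since genes are not independent replicates. A gene was called when its difference was at least 1 either way and its brighter array was at or above 6.22, called the level filter here, which is the overall median of the gene-named probe sets. By this rule 1426 genes were called (8.06%), of which 764 were higher (4.32%) and 662 lower (3.74%) with 8Br-cAMP. The median difference of all genes was -0.03. Large differences lay mostly on the higher side, since 147 genes were higher by at least 2 and 67 lower by at least 2, while 25 were higher and 0 lower by at least 4. Whether fewer cells expressed a gene or each cell held less of its RNA cannot be told apart in RNA from whole cultures.

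Probe sets of the array's own controls give a spread of differences between these 2 arrays for comparison. Their targets are not described, so whether they respond to 8Br-cAMP themselves was not tested. The 2197 positive control probe sets, so named by their identifiers, had a median difference of 0.01, and 8.56% of them passed the call rule, 128 higher and 60 lower. This is close to the 8.06% of all genes, but 2085 of these controls lay past the level filter, and 95% of their differences lay between -1.12 and 1.37. Among probe sets past the level filter, 9.02% of the positive controls and 15.4% of the gene-named probe sets were called. Of the 612 negative controls, 66 lay past the filter and 51 were called, which is 8.33% of all and 77.3% of those past it, and 95% of the differences of all 612 lay between -2.996 and 2.57. The share of genes called was 13.1% at levels from 6.22 to 8 and 19.5% at levels from 12 to 14, so calls were not concentrated among dim genes. A difference of a single gene near 1 is therefore within the range of the positive controls, and one near 2 within that of the negative controls. Differences above 2.57 or below -2.996 lie outside both 95% ranges, though some negative controls lay there too. Counts of members are to be read against the shares of all genes, 8.06% called, 4.32% higher and 3.74% lower, also where not repeated. Lists differ in how many members lie past the filter. For those wholly past it, such as the 30 mitosis genes, 15.4% is the nearer comparison.

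**Figure D1:**
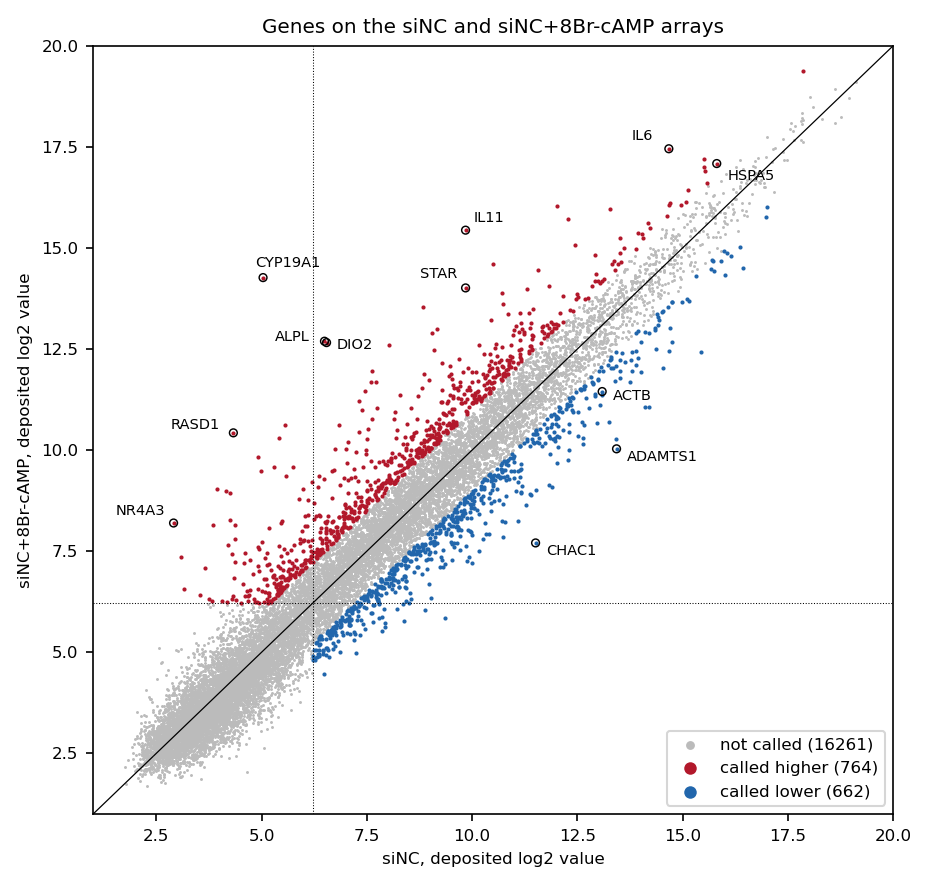
Deposited log2 values of all 17687 genes on the siNC array (x axis) and the siNC+8Br-cAMP array (y axis), with the level filter dotted. Red points are the 764 genes called higher and blue points the 662 called lower, and CYP19A1, at 5.04 and 14.26, lies farthest from the diagonal.

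Among 42 lists, chosen with earlier results of these data known, genes known to respond to cyclic AMP through CREB had the highest median difference. Of 29 measured members 13 were called higher and 0 lower, beside 4.32% and 3.74% of all genes, and the median of members was 0.91. With both values required to pass the level filter 8 members were called higher. After siYT the list median was 0.03, with 12 members called higher and 3 lower. All 12 were among the 13 called higher after siNC. The 4 members with the largest differences were the orphan nuclear receptors NR4A3 and NR4A2 and the phosphodiesterases PDE7B and PDE4D. Promoter stretches of 4 higher members, and of CHMP1B from among the 20 highest genes, are shown because a search found CREs in them, from RefSeq on GRCh38.p14, 5′ to 3′ on the strand of the gene. Capitals mark the full CRE TGACGTCA or its core TGACG, written CGTCA where it lies on the opposite strand. The stretches of NR4A3 (chr9:99821770-99821869, plus strand), SIK1 (chr21:43427247-43427353, minus strand), DUSP1 (chr5:172771296-172771375, minus strand), PDE7B (chr6:135851516-135851575, plus strand) and CHMP1B (chr18:11851337-11851396, plus strand) follow.
NR4A3: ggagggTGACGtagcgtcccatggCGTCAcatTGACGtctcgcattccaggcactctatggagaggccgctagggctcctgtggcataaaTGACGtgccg
SIK1: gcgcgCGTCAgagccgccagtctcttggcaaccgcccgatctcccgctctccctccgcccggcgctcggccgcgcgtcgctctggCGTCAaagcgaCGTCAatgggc
DUSP1: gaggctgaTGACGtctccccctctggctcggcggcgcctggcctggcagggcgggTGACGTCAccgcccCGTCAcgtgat
PDE7B: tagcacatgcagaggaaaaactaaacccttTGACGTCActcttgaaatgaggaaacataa
CHMP1B: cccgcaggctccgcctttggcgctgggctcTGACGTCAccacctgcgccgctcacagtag
The NR4A3 stretch holds 4 cores and no full CRE, and that of SIK1 holds 3 cores. Full CREs begin at position -125 from the start of transcription in DUSP1, -155 in PDE7B and -46 in CHMP1B.

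NR4A3, an orphan nuclear receptor made early after hormone stimulation, was at 2.91 on siNC and 8.20 on siNC+8Br-cAMP, and at 3.45 on siYT and 8.61 on siYT+8Br-cAMP. Both treated arrays were high and both untreated arrays lay near the background, a difference of 5.28 after siNC. Its relative NR4A2 was at 3.09 and 7.35 on the siNC arrays and at 4.90 and 10.28 on the siYT arrays. NR4A1, the best studied of the 3 receptors, was at 5.35 and 6.81, which is 2.77-fold, and at 5.87 and 8.67 after siYT. All 3 receptors started under the level filter, so the size of these differences depends on the background.

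The phosphodiesterases among the CREB targets were higher as well. PDE4D, a cyclic AMP-specific enzyme, was at 7.71 and 11.69, 15.7-fold higher, and at 8.22 and 12.23 after siYT. PDE7B, which has the same substrate, was at 5.55 and 10.61, and at 9.13 and 12.74 after siYT, so its untreated level was far lower with YAP and TAZ present. PDE4B was at 4.95 on siNC and 2.06 higher on siNC+8Br-cAMP. These 3 were the members called higher among 21 measured phosphodiesterases. PDE1C, a calmodulin-dependent enzyme, was called lower at 13.29 and 12.29, and the median of the list was -0.07. PDE8A and PDE7A, at 0.25 and -0.07, were not called.

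The other CREB targets called higher differed by 1.02 to 2.77. BDNF, a neurotrophin, was at 10.44 and 13.21, a difference of 2.77. INHBA, the subunit of activin A, differed by 2.04, and SIK1, a kinase that feeds back on CREB coactivators, by 1.97. DUSP1, a phosphatase of MAP kinases, was at 12.92 and 14.81, and PPARGC1A, a coactivator of mitochondrial genes, at 8.35 and 10.14. SGK1, a kinase that regulates ion transport, differed by 1.72 and CEBPB, a transcription factor of ovulation, by 1.02. After siYT the first 6 of these 7 were also called higher, beside 4.06% of all genes in that pair, while CEBPB differed by -0.47. CITED2, a coregulator at 15.32 and 15.19, TRIB1 at 10.66 and 9.66 and GADD45B at 9.46 and 8.77 were the highest members that were not called.

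The machinery upstream of CREB showed few calls. Of 30 measured genes for protein kinase A subunits, adenylyl cyclases, anchoring proteins and CREB factors, 0 were called higher and 1 lower, with a median of -0.12. The 1 was POPDC3, a cyclic AMP-binding membrane protein, at 13.22 and 12.10. This is 3.33% of the list, beside 8.06% of all genes, and 20 of the 30 lay past the level filter. GNAS, which encodes the stimulatory G protein, was at 13.54 and 14.16, and the catalytic subunit PRKACB was at 9.80 and 10.52. Of 27 measured RGS proteins and RAS or RAP regulators, 3 were called higher and 2 lower. RASD1, a RAS-like GTPase, was at 4.33 and 10.42, RASL11A, another, at 5.29 and 9.58, and the growth-suppressing DIRAS3 at 5.01 and 7.72. All 3 lay under the level filter on siNC. RGS10 and RGS4, which shut off G protein signals, were lower by -1.71 and -1.68.

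**Figure D2:**
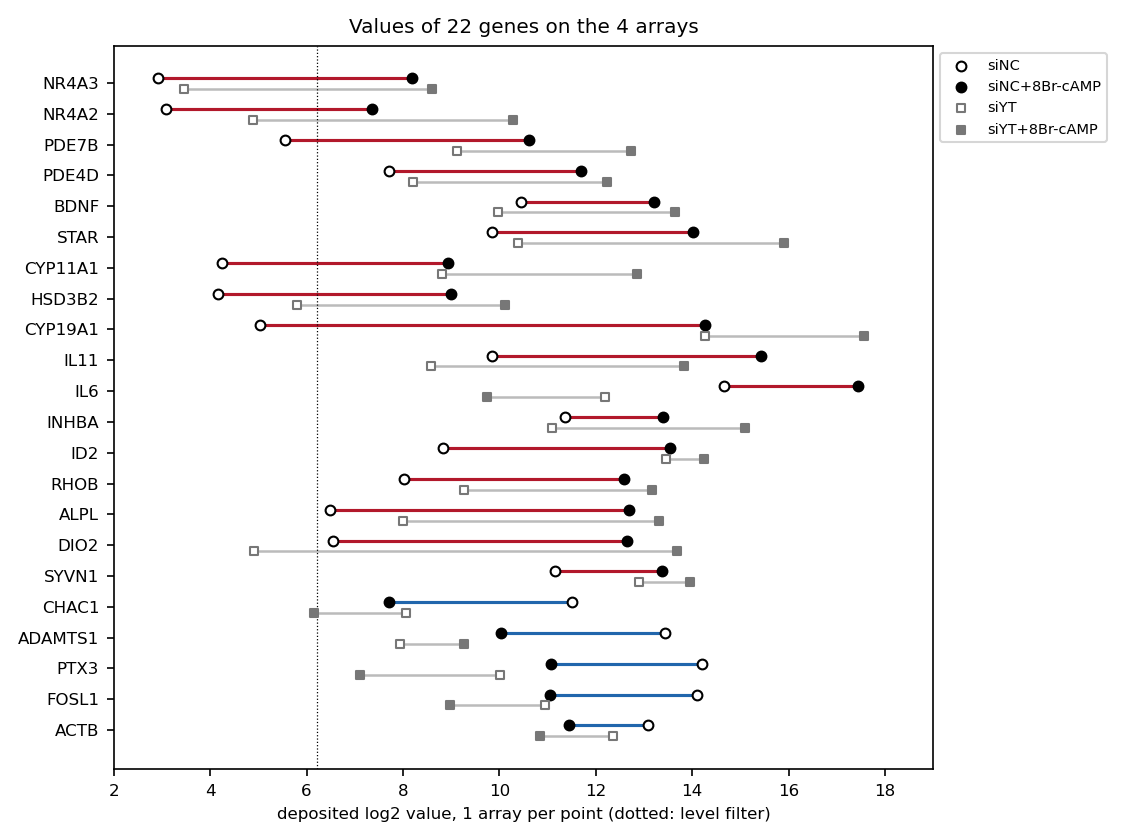
Deposited log2 values of 22 genes on each of the 4 arrays, with open symbols without and filled symbols with 8Br-cAMP, circles after siNC and squares after siYT, and lines joining the arrays of a pair (red higher, blue lower after siNC). CYP19A1 reached 14.26 on siNC+8Br-cAMP, equal to its value on siYT without the analogue, and IL6 was higher with 8Br-cAMP after siNC but lower after siYT.

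Across all promoters, the full CRE was more frequent among genes called higher than among all genes, and its core was not when set against genes past the level filter. RefSeq promoter windows of 300 bases, from 250 before to 50 after each annotated start, were found for 14250 of the 17687 genes (80.6%), as 20090 windows. Both strands were searched, and a full CRE also counts as a core. The full CRE TGACGTCA was in 2.27% of all windows, 2.85% of those of genes past the level filter, 3.76% of those of genes called higher and 1.52% of those of genes called lower. Where the difference was at least 2, it was in 3.11% of 193 windows of higher genes, near the share past the filter. For lower genes it was in 1.10% of 91 windows. Among genes past the level filter, 305 had a full CRE, of which 11.5% were called higher and 4.26% lower, against 7.97% and 7.13% of the 7499 without one. In the siYT pair the shares were 8.52% and 2.62% with a full CRE, and 6.87% and 7.39% without. The core TGACG was in 27.9% of all windows, 32.1% of those of genes past the level filter and 30.6% of those of genes called higher, and in 23.3% where the difference was at least 2. The AP-1 site TGAGTCA was in 4.05% of all windows, in 3.55% of those of genes past the filter, in 3.86% of those of higher genes and in 5.27% of those of lower genes. Where the difference was at least 2, it was in 14 of 193 windows of higher genes (7.25%) and 5 of 91 of lower genes (5.49%). These windows belong to 112 and 55 genes, since each annotated start counts separately, and windows of 1 gene are not independent. The TEAD site GGAATG was in 12.2%, 11.1%, 13.3% and 13.6% of the windows of all genes, of those past the filter, and of higher and lower genes. A match describes letters in a window and does not show that a factor bound there.

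DIO2 and PPP1R15A are shown because the full CRE occurred in genes that went opposite ways. DIO2 (chr14:80212245-80212304, minus strand, upstream of 1 of its 2 annotated starts) has the element at position -96, and PPP1R15A (chr19:48872333-48872392, plus strand) at position -58.
DIO2: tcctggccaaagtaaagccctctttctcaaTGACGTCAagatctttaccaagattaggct
PPP1R15A: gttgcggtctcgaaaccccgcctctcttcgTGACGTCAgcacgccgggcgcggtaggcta
DIO2, the deiodinase that turns thyroxine into active thyroid hormone, was at 6.54 on siNC and 12.66 on siNC+8Br-cAMP, and at 4.91 and 13.69 after siYT. PPP1R15A, the phosphatase subunit that ends the integrated stress response, was at 10.16 and 7.51, and at 8.95 and 8.23 after siYT. Thus the treated arrays were high for DIO2 and low for PPP1R15A in both pairs, although PPP1R15A was not called after siYT.

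The genes that turn cholesterol into progesterone and estrogen were among those with the largest differences. Of 21 measured steroid synthesis genes 8 were called higher and 1 lower, or 5 higher with both values past the level filter, and the median was 0.47. STAR, which carries cholesterol into mitochondria, was at 9.84 and 14.01 on the siNC arrays and at 10.38 and 15.90 on the siYT arrays. It is the member of the core pathway whose untreated level was well above the filter. CYP11A1, which cuts the cholesterol side chain, was at 4.25 and 8.94, and HSD3B2, which makes progesterone from pregnenolone, at 4.17 and 8.99. Both untreated siNC values lay near the background.

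CYP19A1, the aromatase that makes estrogens, had the largest difference of all called genes, at 5.04 on siNC and 14.26 on siNC+8Br-cAMP. After siYT it was at 14.26 without and 17.56 with the analogue, so the untreated arrays differed far more than the treated ones. The most downstream of its 7 annotated starts is shown, since the ovary is known to use the promoter nearest to the coding region. The stretches lie on the minus strand at chr15:51243217-51243246 and chr15:51243143-51243172, and capitals mark a CRE core at -207 and the letters AAGGTCA, a binding motif of NR5A receptors, at -131.
CYP19A1, CRE core: tgggaatgcaCGTCActctacccactcaag
CYP19A1, NR5A motif: tgagactctaccAAGGTCAgaaatgctgca
AAGGTCA was in 3.21% of all windows, 2.58% of those of genes past the level filter and 2.48% of those of genes called higher. AAAGGTCA, the longer motif of NR4A receptors, which contains it, was in 1.04%, 0.861% and 0.693%.

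Other steroid enzymes were higher at better measured levels. The aldo-keto reductases AKR1C1 (9.51 and 11.74), AKR1C2 (7.13 and 9.31) and AKR1C3 (11.15 and 13.14) act on the ketone groups of steroids. Their sequences are nearly identical, so probes may have read more than 1 of them and their separate values are uncertain. After siYT they differed by 0.65, 0.46 and -0.06. HSD17B4, a peroxisomal enzyme, was higher by 1.04. HSD17B2, which inactivates estradiol, was lower at 6.55 and 5.10. FDX1, the electron donor of CYP11A1, was at 7.89 and 8.36 and was not called.

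The genes of cholesterol supply were not higher alongside the steroid enzymes. Of 24 measured genes of cholesterol synthesis and uptake 0 were called higher and 4 lower, with a median of 0.00. Together this is 16.7%, near the 15.4% of gene-named probe sets past the level filter, where 20 of the 24 lay. The lower genes were INSIG1, a brake on sterol synthesis (-1.35), the enzymes HMGCS1 (-1.23) and LSS (-1.20), and SOAT1, which esterifies cholesterol (-1.17). MSMO1, a sterol oxidase, was at 14.74 and 14.18 and was not called. Of 22 fatty acid and lipid droplet genes 3 were called higher and 2 lower. PNPLA2, the triglyceride lipase, differed by 1.24, ACADVL, an enzyme of fatty acid oxidation, by 1.33 and SCD, the stearoyl desaturase, by 1.08. ACACA, which starts fatty acid synthesis, was lower by -1.23 and the fatty acid carrier FABP3 by -1.03.

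**Figure D3:**
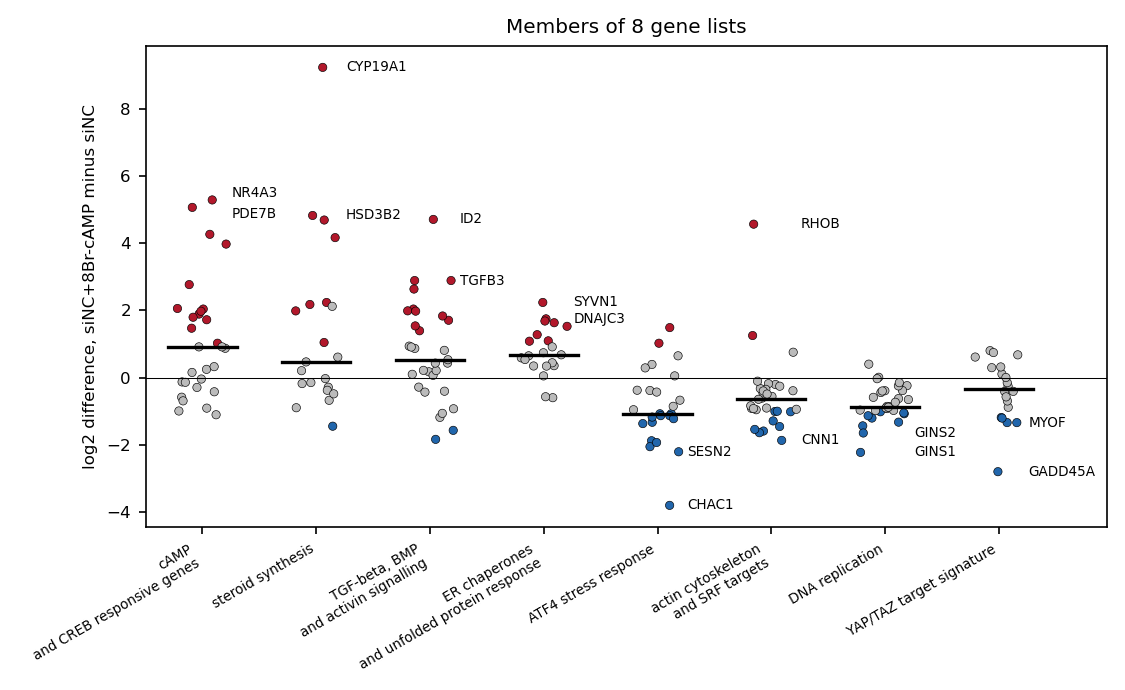
Log2 difference, siNC+8Br-cAMP minus siNC, of each measured member of 8 gene lists (points), with the median of members as a bar; red points were called higher and blue points lower. Medians run from 0.91 for cyclic AMP and CREB responsive genes to -1.08 for ATF4 genes, and CYP19A1 is the highest point at 9.23.

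Genes of ovulation and luteinisation went both ways. Of 32 measured members 8 were called higher, or 5 with both values past the level filter, and 5 lower, and the median was 0.05. IL11, a cytokine of the IL6 family, was at 9.84 on siNC and 15.44 on siNC+8Br-cAMP, and at 8.57 and 13.82 after siYT, so it was high on both treated arrays. EDN2, an endothelin made around ovulation, was at 3.84 and 8.15 after siNC but at 3.16 and 3.28 after siYT. It was past the level filter on the siNC+8Br-cAMP array and on no other. SNAP25, a protein of vesicle fusion, was at 6.35 and 9.08, and CD24, a surface glycoprotein, at 8.22 and 10.49. HAS2, which makes hyaluronan for the cumulus matrix, was at 4.29 and 6.30, and PTGES, a prostaglandin E synthase, at 4.72 and 6.53, each just past the filter. ADAMTS9, a protease of proteoglycans, was higher by 1.31.

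The lower members of this list included secreted proteins of the follicle. ADAMTS1, a protease of the proteoglycan versican, was at 13.43 and 10.03 after siNC, and at 7.94 and 9.26 after siYT, where it was called higher. PTX3, which crosslinks the cumulus matrix, was at 14.20 and 11.07, and at 10.02 and 7.11 after siYT. PLAT, the tissue plasminogen activator, differed by -2.88 and TIMP3, an inhibitor of metalloproteinases, by -1.97. PGR, the progesterone receptor, was at 8.38 and 6.88. VEGFA, an angiogenic factor that was not called, was at 13.08 and 13.18.

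Of 19 measured prostaglandin genes 2 were called higher and 1 lower, together 15.8% beside 8.06% of all genes. PTGIS, the prostacyclin synthase, was at 11.69 and 13.08, and PTGFR, a prostaglandin F receptor, at 10.55 and 9.26. Among 21 angiogenic factors and endothelins 3 were higher and 2 lower. ANGPT1, a ligand of endothelial TIE receptors, was at 4.56 and 6.69 and NRP2, a coreceptor of VEGF, at 11.93 and 13.12. VEGFC, a lymphatic growth factor, differed by -1.30 and EDN1, another endothelin, by -1.15.

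Genes of granulosa identity were called in both directions. Of 22 measured members 3 were called higher and 3 lower, and the median was 0.39. GJA1, a connexin of the gap junctions between granulosa cells, was at 10.86 and 13.36, and at 14.50 and 15.67 after siYT. IGF1R, the receptor of insulin-like growth factors, was at 10.40 and 11.95, and INHBA was the third. FST, the activin antagonist follistatin, was at 13.79 and 11.95, and INHBB, another activin subunit, at 7.04 and 5.47. The hormone receptors FSHR (3.82 and 4.23) and LHCGR (a difference of -0.01) and the transcription factors FOXL2 (4.13 and 4.78) and NR5A1 (5.42 and 5.80) stayed under the level filter on both siNC arrays.

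The check of the cell type label therefore gave a mixed result. Of 12 measured granulosa markers 6 were past the level filter on at least 1 of the siNC arrays, namely INHBA, INHBB, FST, GATA4, CYP19A1 and STAR. GATA4, a transcription factor of somatic gonadal cells, was at 9.88 and 10.79. Of the 5 endothelial markers fixed for this check KDR passed, at 6.31 and 5.70, and of 4 leukocyte markers CD68, at 10.77 and 10.33, a lysosomal protein. Of 5 theca and stroma markers PDGFRA passed, at 7.27 and 7.16, and 0 of 6 oocyte markers did. A longer theca and stromal fibroblast list had 5 of 10 measured members past the filter. COL1A1, a collagen at 13.27 and 12.90, and THY1, a surface protein at 12.95 on both siNC arrays, were the brightest. The keratins KRT18 (16.40 and 15.92), KRT7 and KRT8 were past the filter among 5 epithelial markers. None of these markers outside the granulosa set was called with 8Br-cAMP. Among longer lists of such markers, those of endothelium, leukocytes, surface epithelium and oocytes had 0 calls, and theca and stromal fibroblasts had PDGFRB, a growth factor receptor, higher by 1.66 and ACTA2, smooth muscle actin, lower by -1.59.

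The TGF-beta, BMP and activin list had the second largest number of higher members. Of 31 measured genes 11 were called higher and 2 lower, with a median of 0.53. The ID proteins, which bind and block transcription factors of the basic helix-loop-helix class and are classical BMP targets, were all 4 called higher. ID2 was at 8.84 on siNC and 13.54 on siNC+8Br-cAMP, and at 13.46 and 14.25 after siYT, so siNC was the low array and the other three lay close together. ID3 was at 11.56 and 14.45, ID1 at 10.10 and 11.93 and ID4 at 6.54 and 8.07. After siYT, ID3 differed by 1.14, ID1 by 0.99 and ID4 by 0.94.

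Ligands, receptors and inhibitors of this family are given in that order. GDF15, a stress-induced ligand, was at 12.44 and 15.07, and at 13.17 and 15.97 after siYT. TGFB3 (3.54 and 6.43) and BMP6 (4.71 and 6.41) barely passed the level filter after siNC but reached 10.60 and 10.36 on siYT+8Br-cAMP. BMP4, another ligand, was at 11.66 and 13.05. TGFBR1, a receptor kinase of TGF-beta, was at 10.99 and 12.96, and TGFBR2, its partner at 12.57 and 13.10, was not called. SMAD6, an inhibitory SMAD, was at 9.71 and 11.69. SMURF2, a ubiquitin ligase that removes receptors of this family but is not counted in the list, was lower at 15.42 and 12.43. SMAD3, a transcriptional effector, was at 11.18 and 10.77.

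The insulin-like growth factor system had 5 of 18 measured members higher and 0 lower, and all 5 were called higher after siYT as well. IGFBP4, a binding protein, was at 9.16 and 12.99, and at 8.69 and 12.94 after siYT. PAPPA, the protease that cuts IGFBP4, was at 10.56 and 12.62. STC1, a stanniocalcin that inhibits PAPPA, was at 13.28 and 15.96, and IGFBP1, another binding protein, at 9.99 and 11.68. IGFBP3 differed by 0.61 and was not called. Among 15 glucocorticoid response genes 4 were higher and 1 lower, with PDK4, a brake on pyruvate oxidation, at 4.36 and 8.14 and KLF9, a transcription factor, at 6.26 and 8.30 beside SGK1 and DUSP1. NR3C1, the glucocorticoid receptor itself, was at 9.98 and 10.09. GLUL, glutamine synthetase, was lower by -1.11.

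Chaperones of the endoplasmic reticulum had calls on the higher side, and targets of the stress factor ATF4 mostly on the lower side. Of 21 measured chaperone and unfolded protein response genes 8 were called higher and 0 lower, 19 had a difference above 0, and the median was 0.68. SYVN1, the ubiquitin ligase of misfolded protein disposal, was at 11.14 and 13.38. DNAJC3, a cochaperone, was at 10.45 and 12.19, and HSPA5, the central chaperone of the compartment, at 15.81 and 17.08. PDIA4, a disulphide isomerase, was at 10.92 and 12.60, but at 12.01 and 11.58 after siYT. DNAJB11 (1.63), CRELD2 (1.52), HYOU1 (1.09) and DNAJB9 (1.08), all helpers of protein folding, were the others. CALR and CANX, the lectin chaperones, differed by 0.74 and 0.68 and were not called. After siYT the list median was 0.11, with 2 members called higher and 3 lower, and the difference between the pairs was not tested.

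ATF4 drives genes for amino acid supply and for adaptation to stress. Of 25 measured members 13 were called lower and 2 higher, and the median of -1.08 was the lowest of all lists. CHAC1, an enzyme that degrades glutathione, was at 11.51 on siNC and 7.70 on siNC+8Br-cAMP, and at 8.05 and 6.14 after siYT. It had the lowest difference among called genes with both values past the filter. PSAT1, of serine synthesis, was at 16.43 and 14.50, and MTHFD2, of mitochondrial folate metabolism, at 14.74 and 12.68. DDIT3, a pro-apoptotic transcription factor, was at 8.81 and 6.94, and ASNS, asparagine synthetase, lower by -1.33 and at 12.67 on the treated array. The tRNA synthetases GARS1 (-1.18), SARS1 (-1.08) and AARS1 (-1.08) were lower together with SHMT2 (-1.13), the transporter SLC7A5 (-1.13), the pseudokinase TRIB3 (-1.22), CEBPG (-1.37) and SESN2, a nutrient sensor (-2.21).

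Exceptions within the ATF4 list were SLC3A2, the heavy chain of amino acid transporters, at 15.51 and 17.00, and CEBPB. The RNA of ATF4 itself was at 13.28 and 12.32, a difference of -0.96 that was not called. Of the 13 lower members 11 were also called lower after siYT, the exceptions being GARS1 (-0.94) and SLC7A5 (0.30). Both after siNC and after siYT the median was below -1, at -1.29 in the siYT pair. PCK2, a mitochondrial enzyme of gluconeogenesis outside the list, was at 8.39 and 5.78.

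Actin genes had more members called lower than higher. Of 31 measured members 9 were called lower and 2 higher, 20 were not called, 28 had a difference below 0, and the median was -0.65. ACTB, beta actin, was at 13.09 on siNC and 11.45 on siNC+8Br-cAMP, and at 12.36 and 10.85 after siYT. It was the single member called among 13 housekeeping genes, which had a median of 0.06 and in which GAPDH was at 18.61 and 18.93. CNN1, the contractile protein calponin, was at 9.57 and 7.70, ACTA2 at 11.08 and 9.49, and TAGLN, another smooth muscle protein, at 9.82 and 8.53. MYH9, a nonmuscle myosin, was at 13.63 and 12.17, and FHL2, an adaptor regulated by the factor SRF, at 13.77 and 12.22. TPM4 (-1.02), ACTG1 (-1.01) and ACTN1, at 15.70 and 14.70, were at the threshold. ACTB and ACTG1 have similar coding sequences, so probes may have shared signal between them.

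In the opposite direction, RHOB, a small GTPase of endosomes, was at 8.02 and 12.59, and at 9.27 and 13.16 after siYT. TMOD1, which caps actin filaments, was at 7.56 and 8.81. After siYT 8 of the 9 lower actin members were called lower again, all but FHL2 (0.16), and the list median was -0.71. Among 20 integrin and focal adhesion genes 3 were lower and 1 higher. They were PXN, the adaptor paxillin (-1.74), VASP, which extends actin filaments (-1.37), the integrin ITGA3 (-1.06) and LIMS1, an adaptor of integrin-linked kinase (1.48). The integrin ITGB1 was at 15.72 and 15.87.

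YAP and TAZ, the coactivators that respond to cell tension and the Hippo kinases, differed from each other in RNA. YAP1 was at 9.48 and 9.46, and WWTR1, which encodes TAZ, at 7.58 and 9.13. Of 20 measured YAP/TAZ target genes 5 were called lower and 0 higher, with a median of -0.33. CCN2, a secreted matrix protein, was at 15.67 and 14.47, its relative CCN1 at 14.10 and 12.92, and ANKRD1, a muscle and stress protein, at 14.42 and 13.08. MYOF, a membrane repair protein, differed by -1.34 and GADD45A, a growth arrest protein, was at 11.89 and 9.09. Each of these 5 stayed above 9 on both siNC arrays. NT5E, a surface nucleotidase at 17.37 on both siNC arrays, was not called. Of 24 Hippo components and TEAD factors 3 were lower and 1, WWTR1, higher. Together this is 16.7%, near the 15.4% of gene-named probe sets past the level filter. FRMD6, an upstream activator of the Hippo kinases, was at 11.50 and 9.00, TEAD4, a DNA-binding partner of YAP, at 6.73 and 5.17, and VGLL4, which competes with YAP, at 7.93 and 6.72.

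Among matrix proteases and inhibitors 7 of 25 were lower and 2 higher. PLAU, the urokinase, was at 12.62 and 10.70, and its receptor PLAUR at 12.15 and 10.49, so both plasminogen activators and the receptor were lower. LOXL4, a collagen crosslinker, and ADAMTS12 were each lower by -1.21. MMP16, a membrane metalloproteinase, was higher by 1.52. Of 32 extracellular matrix genes 2 were higher and 2 lower, with a median of -0.00. Together this is 12.5%, beside 15.4% of gene-named probe sets past the level filter, where 26 of these genes lay. COL4A1, a basement membrane collagen, was at 9.42 and 11.22 and NID2, which links basement membranes, at 5.92 and 7.80. THBS1, thrombospondin, was at 16.35 and 15.01 and TNC, tenascin, at 10.27 and 8.69. All 4 were called the same way after siYT.

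Of 21 measured junction genes 4 were called higher and 3 lower, and the median was -0.36. The lower ones were the tight junction proteins CLDN1 at 14.52 and 12.03, OCLN at 10.68 and 9.33 and CLDN11 at 15.74 and 14.42. The higher ones were GJA1, given above, CTNNB1, beta catenin, at 14.06 and 15.25, and the cadherins CDH11 at 11.88 and 13.16 and CDH6 at 6.77 and 7.77. CDH2, the cadherin of neurons and granulosa cells, differed by -0.69 and was not called.

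Cell cycle genes were called lower and none higher in 2 lists. Of 31 measured DNA replication genes 9 were called lower and 0 higher, 29 lay below 0, and the median was -0.87. Of 30 mitosis genes 7 were lower and 0 higher, 25 lay below 0, and the median was -0.47. GINS1, a subunit of the replicative helicase, was at 9.86 and 7.63, its partner GINS2 at 8.62 and 6.97 and the helicase factor CDC45 at 9.11 and 7.67. TYMS, thymidylate synthase, was at 13.35 and 12.02. CDC20, an activator of anaphase, was at 12.29 and 10.65 and AURKB, a mitotic kinase, at 8.89 and 7.48. MKI67, the proliferation marker, was at 12.07 and 11.07, and CCNA2, an S phase cyclin at 14.14 and 13.64, was not called. After siYT 3 of the 9 lower replication genes and 2 of the 7 lower mitosis genes were called lower again. Some of the others lay under the level filter on both siYT arrays, where no call is possible. The list medians in that pair were -0.45 for replication and -0.89 for mitosis. MKI67 was 1 of the 2 mitosis genes, at 8.81 and 7.02 after siYT, both lower than on the siNC arrays.

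Of 20 CDK inhibitors and p53 targets 3 were higher and 3 lower. CDKN1A, the inhibitor p21, was at 13.30 and 13.74 and was not called. GADD45A, SESN2 and BAX (-1.17) were lower, and ZMAT3 (1.36), SESN1 (1.26) and TP53INP1 (1.13) were higher. BAX and PMAIP1 (-1.14), which both promote cell death at mitochondria, were the calls among 20 apoptosis genes. This is 10%, near the 8.06% of all genes. E2F7, a repressor of cell cycle genes, was at 10.77 and 8.22.

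Inflammatory genes were called in both directions, and 30.4% of them passed the rule beside 8.06% of all genes. The share was 15.4% among gene-named probe sets past the level filter, where 19 of the inflammatory genes lay. Of 23 measured members 4 were called lower, or 7 after each array was centred on its median, and 3 higher, and the median was -0.74. IL6 was at 14.67 on siNC and 17.45 on siNC+8Br-cAMP, while after siYT it was at 12.18 and 9.75. The highest and the lowest of its 4 values were thus both on treated arrays. TNFAIP3, an inhibitor of NF-kB signalling, was at 15.13 and 16.44, and IL11 was the third higher member. VCAM1, an adhesion molecule for leukocytes, was at 11.39 and 8.89, CSF1, the macrophage growth factor, lower by -1.67 and at 14.33 on the treated array, CXCL3, a chemokine, at 9.69 and 8.33 and ICAM1 at 11.31 and 10.22. CXCL8, another chemokine, differed by -0.86 and was not called. Of 28 interferon response genes 2 were higher and 2 lower, with a median of 0.16. Together this is 14.3%, near the 15.4% past the level filter, where 25 of these genes lay. IRF1, a transcription factor, was at 8.13 and 6.65, while IFI6, at 17.85 and 18.16, was not called.

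Of 24 genes for EGF ligands, receptors and ERK feedback 4 were called higher and 4 lower, with a median of -0.08. SPRY1, a Sprouty inhibitor of receptor tyrosine kinases, was at 9.10 on siNC and 12.46 on siNC+8Br-cAMP, and at 12.62 and 12.19 after siYT. Here again siNC was the low array. SPRY2 (1.34), SPRY4 (1.11) and IER3 (1.37), an early response protein, were also higher. FOSL1, an AP-1 subunit made downstream of ERK, was at 14.09 and 11.05, and DUSP5, a nuclear ERK phosphatase, at 11.82 and 9.14. The receptors ERBB3 (8.44 and 6.27) and EGFR (9.97 and 8.63) were lower. JUN, another AP-1 subunit, was at 9.94 and 7.36, and at 8.69 and 5.85 after siYT.

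The lists of further pathways follow, beside 8.06% called among all genes and 15.4% among gene-named probe sets past the level filter. The shares called were 13.3% of Wnt, 28.6% of clock, 12% of hypoxia, 14.8% of oxidative stress and 4% of oxidative phosphorylation genes. Of 30 Wnt genes 3 were higher and 1 lower: the receptor FZD4 was at 8.29 and 11.35, the antagonist SFRP1 at 6.11 and 8.39, the ligand WNT4 at 5.46 and 6.49 and the ligand WNT5B at 9.50 and 7.95. Of 20 Notch genes 0 were called, and NOTCH2 was at 12.21 and 11.27. Of 21 clock genes 3 were higher, among them the repressor NR1D1 (7.29 and 8.85), and 3 lower, among them CRY1, a repressor of the clock (8.06 and 6.83). Of 25 hypoxia and glycolysis genes 3 were higher, with SLC2A3, a glucose transporter, at 13.51 and 14.86. Of 27 oxidative stress genes 3 were higher and 1 lower, the latter HMOX1, heme oxygenase, at 12.13 and 10.95. Among 25 oxidative phosphorylation subunits 1 was called higher, NDUFA2 of complex I at 9.54 and 10.58, and 20 lay above 0 with a median of 0.33. In the siYT pair 12 of these subunits were called higher.

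**Figure D4:**
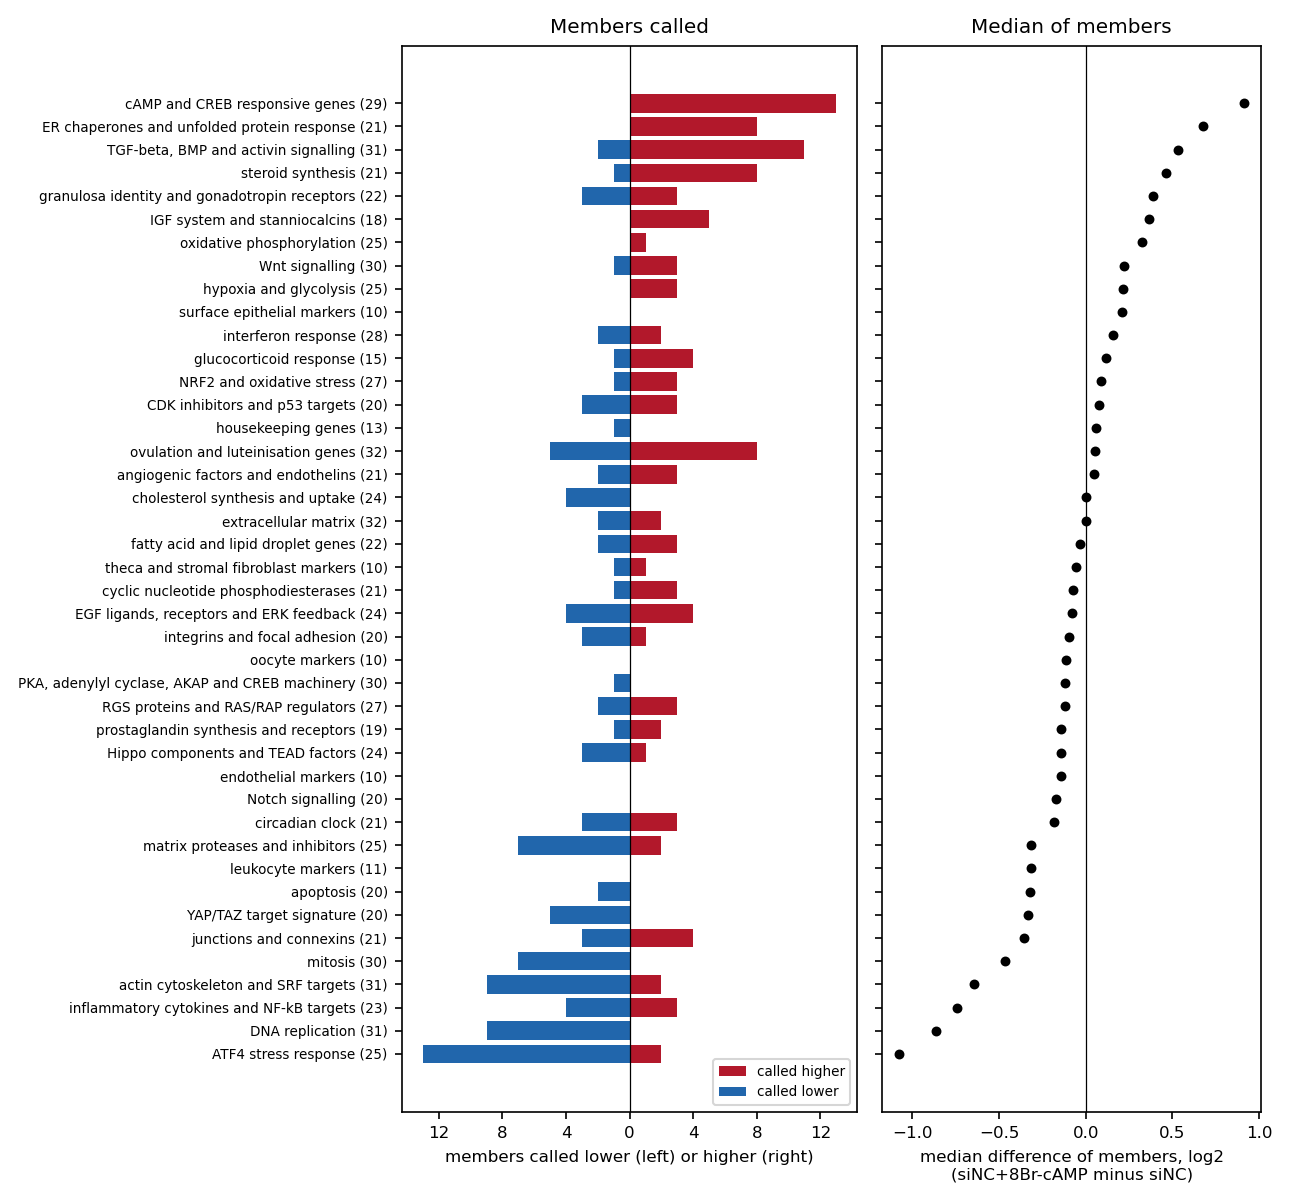
Left, members called higher (red, right of 0) and lower (blue, left of 0) in 42 gene lists, with the number measured in brackets, and right, the median difference of each list's members, sorted. The cyclic AMP and CREB list is at the top with 13 higher and 0 lower, and the ATF4 list at the bottom with 2 higher and 13 lower.

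Of the 20 highest genes with both values past the level filter, several belong to none of these lists. ALPL, the tissue-nonspecific alkaline phosphatase, had the largest difference of them, at 6.49 on siNC and 12.69 on siNC+8Br-cAMP, and at 7.99 and 13.31 after siYT. CHMP1B, a membrane remodelling subunit, was at 10.49 and 14.61, and at 11.31 and 16.23 after siYT. TOB1, an antiproliferative adaptor of mRNA decay, was at 12.01 and 16.04. Both treated arrays were high for these 3 genes. TNFSF10, the death ligand TRAIL, was at 7.62 and 11.96 but at 12.51 and 12.95 after siYT. ARRDC3, an arrestin that directs receptors to degradation, was at 9.06 and 12.88, and at 11.97 and 12.80 after siYT. For both, siNC was low and the other arrays were close together.

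CYP2S1, a cytochrome P450 of lipid and drug oxidation, was at 7.45 and 11.45, and VTN, the adhesive protein vitronectin, at 7.60 and 11.67. CPEB4, which regulates the poly(A) tails of mRNAs, was at 7.31 and 11.21, and KYNU, of tryptophan breakdown, at 6.85 and 10.63. FPR1, a receptor of bacterial peptides, was at 7.39 and 10.99, and TGM2, a protein-crosslinking transglutaminase, at 12.27 and 15.71. HLA-DMA, which loads peptides on class II molecules, was at 7.74 and 11.04. Genes that started under the filter included the amino acid transporter SLC7A8 (5.41 and 10.31), the receptor TNFRSF19 (4.91 and 9.82), CSGALNACT1, which starts chondroitin sulfate chains (4.99 and 9.49), the protease inhibitor SERPINB4 (5.76 and 9.57), the protocadherin PCDH7 (5.59 and 9.35) and the pseudokinase TRIB2 (6.21 and 9.21). SERPINB4 has a near-identical neighbour, so its value may include that gene.

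The lowest genes held further membrane and signalling proteins. PODXL, the sialomucin podocalyxin, was at 13.41 and 10.28, and at 10.03 and 8.87 after siYT. AHNAK2, a scaffold protein, was at 11.09 and 8.25, EMP1, a tetraspan membrane protein, at 12.27 and 9.76 and ATP8B1, a lipid flippase, at 12.64 and 10.14. S1PR1, a receptor of sphingosine phosphate, was at 9.87 and 7.25, and ETS1, a transcription factor, at 9.03 and 6.33. PPP1R14B, an inhibitor of a protein phosphatase, was at 13.25 and 10.70, while TMEM171 differed by -2.79 and STPG1 by -2.65. Of lower genes that ended under the filter, MARCHF4, a ubiquitin ligase, was at 9.37 and 5.85, ULBP1, a ligand of natural killer cells, at 8.22 and 6.06, and FGF5, a fibroblast growth factor, at 7.94 and 5.72. The hair keratin-associated genes KRTAP2-3 (-2.82) and KRTAP2-1 (-2.16) are near copies of each other. AK5, CNIH3, SERPINB7 and METTL27 differed by -2.30, -1.84, -2.32 and -1.98.

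The siYT pair, in which 1452 genes were called (8.21%), 718 higher (4.06%) and 734 lower (4.15%), shares no array with the siNC pair. Of the 764 genes higher after siNC, 279 were also higher after siYT, which is 36.5% of the siNC list and 38.9% of the siYT list. Of the 662 lower genes, 215 were lower in both, 32.5% and 29.3% of the lists. A difference of the same sign was found for 623 of the 764 (81.5%) and 559 of the 662 (84.4%), while 48.5% of all genes were above and 51.5% below 0 after siYT. The genes called higher had a median of 1.33 after siNC and 0.74 after siYT, and the genes called lower -1.27 and -0.70. The genes were selected on the siNC difference, which by itself makes that median larger.

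A call the same way in both pairs was more frequent for genes with large differences after siNC. Genes higher by 1 to 1.5 were called higher after siYT in 22.9% of 476 cases, those higher by 2 to 3 in 72.6% of 95 and those higher by at least 3 in 78.8% of 52. Among lower genes the shares were 25.8% of 473, 65.6% of 61 and 66.7% of 6. Of the 20 highest genes past the filter 16 were called higher after siYT, and ID2, TNFSF10, ARRDC3 and SPRY1 were not. Of the 20 lowest 13 were called lower. Opposite calls were rare, with 11 genes higher after siNC and lower after siYT, and 7 the other way. The widest gap was that of IL6, followed by TRIB2, ADAMTS1, SDC1, a syndecan at 9.11 and 7.48 after siNC and at 5.98 and 7.98 after siYT, and RCL1, of ribosomal RNA processing, at 7.22 and 6.09 and at 4.45 and 6.35. With 1 array per group, whether the siRNA altered these responses was not tested.

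**Figure D5:**
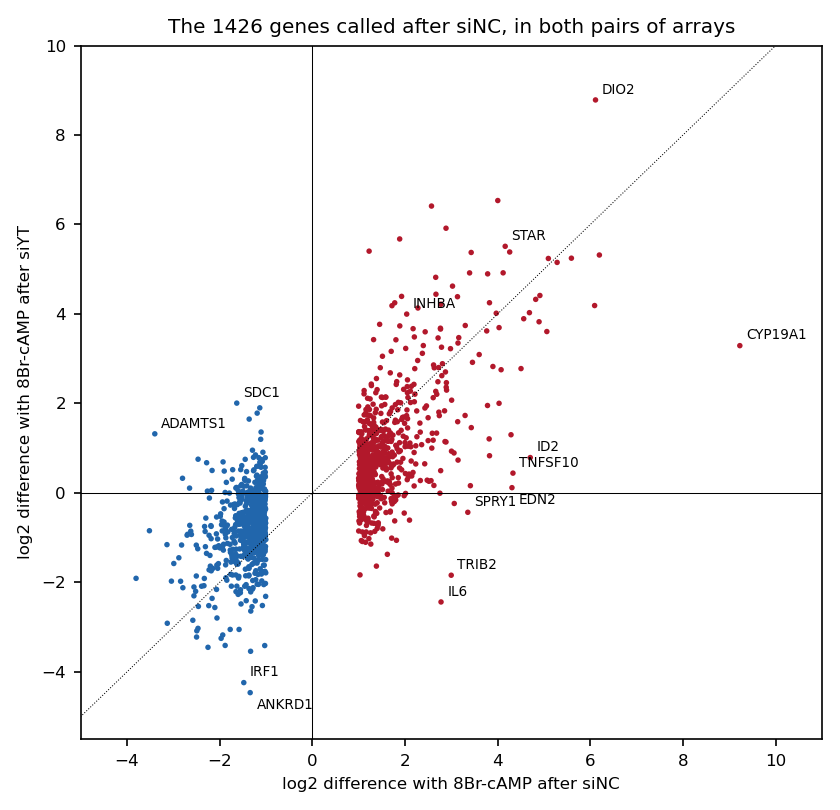
Log2 difference with 8Br-cAMP after siNC (x axis) and after siYT (y axis) of the 1426 genes called after siNC, red higher and blue lower, 1 point per gene, with equal differences dotted. Most points share their sign, and IL6, TRIB2 and ADAMTS1 lie in the quadrants of opposite sign.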

How the data were processed

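RNA of 4 KGN cultures was hybridised to Clariom S Human arrays, 1 array per group. The authors deposited RMA values on the log2 scale, made in Affymetrix Expression Console per the labels and the submitters' processing notes; the sources used here give no versions. Values ran from 1.39 to 19.36, above 16, the log2 maximum of a 16-bit scanner, so a further rescaling is possible and folds may not equal signal ratios. The array medians were between 6.20 and 6.27.

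Gene names came from the platform annotation, updated by gene identifier for all 17709 gene-named probe sets. Values were averaged for 20 genes that had more than 1 probe set. Differences, the call rule and 42 gene lists with 873 measured genes were computed in Python 3.11.15 with pandas 2.3.3, and the call rule was tested on simulated data. That simulation had less noise than the spread of the control probe sets, so it checked the working of the rule and not its false calls here. The text names the 20 highest and 20 lowest called genes with both values past the level filter, the 10 and 10 brightest called genes with 1 value under it, called members of the lists, up to 3 bright members of each list that were not called, 5 genes with the widest opposite calls and 21 further measured genes. SMURF2, PCK2, JUN and E2F7 are described beside lists they are not counted in, and ATF4 was named outside this rule, after its value was seen. Members and lists were chosen with earlier results of these data known. List genes without a gene-named probe set, such as CREM, were not used here. Alternatives were other scalings (limma 3.58.1 in R 4.3.3 for cyclic loess), level filters, sizes and probe sets taken singly. The number of arrays limits the precision.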

Additional observations from a re-analysis of the deposited data

Results flagged for a closer look

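Several genes were called in opposite directions by 8Br-cAMP after the 2 siRNAs, each on 1 array per group, and none of these differences between the pairs was tested. IL6, a cytokine, differed by 2.78 after siNC and by -2.44 after siYT. TRIB2, a pseudokinase, differed by 2.9988 and -1.84, and its siNC value lay just under the level filter. ADAMTS1, the versican protease, differed by -3.40 and 1.32, SDC1, a syndecan, by -1.63 and 2.01, and RCL1, of ribosomal RNA processing, by -1.13 and 1.90. Among list members, PTGIS, the prostacyclin synthase, differed by 1.38 and -1.63. NDRG1, a hypoxia-induced protein, differed by 1.82 and -1.06, and SESN1, a p53 target, by 1.26 and -1.14.

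Transcript clusters without a gene name were kept out of the comparisons. Of 3739 such clusters 93 were called higher and 85 lower with 8Br-cAMP after siNC, which is 4.76%, with differences from -4.56 to 3.97. After siYT 32 of the higher and 20 of the lower clusters were called the same way.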

How the results depend on the processing

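No alternative turned the direction of a called named gene or of a list median with a size of at least 0.5. Most of them could hardly have done so. Changed level filters and size thresholds leave each difference as it is, and the added 32 keeps the sign of each probe set. Centring shifts all differences of a pair by the same amount. With the size threshold at 0.58, 3548 genes were called, 1901 higher and 1647 lower, with 776 higher and 689 lower after both siRNAs and 166 called opposite ways. With the threshold at 2, 214 were called, 147 higher and 67 lower, with 79 higher and 18 lower after both siRNAs and 1 opposite. Without a level filter 1088 genes were lower and 37 opposite. Opposite calls numbered 18 in the main setting, 10 with log2 of the linear value plus 32 and 11 with both values past the filter. Genes called higher made up 53.6% of calls, 49.5% after centring each array, 49.4% after cyclic loess and 68.7% at the threshold of 2. The list medians of mitosis and of TGF-beta, BMP and activin signalling moved across a size of 0.5, to -0.50 and 0.49 with centring and to -0.52 and 0.49 with cyclic loess. Of 247 named genes, calls were lost by 3 with centring, 4 with cyclic loess, 3 with positive control centring, 19 with the added 32, 13 with the filter at 6.95, 46 with both values past the filter and 148 at the threshold of 2. No replicate could be left out, since each group has 1 array. Signal near the background limits the size of differences that start or end under the level filter.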
